A study of Homo sapiens with 16 samples.

Results

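The early response of SW620 cells to 5-fluorouracil (5-FU) was read from messenger RNA counts. SW620 is a human colorectal cancer line. The compared samples are the 3 libraries of scramble cells kept for 24 h in 5 µM 5-FU and the 3 libraries of untreated scramble cells, 6 of the 16 libraries of the series. Scramble cells carry a control short hairpin RNA with no intended target. For context, values are also given for the 2 scramble libraries at 48 h of 5 µM 5-FU, and for cells with a hairpin against the transcription factor ATF4 (shATF4), with 3 libraries at 24 h of 5 µM 5-FU and 3 untreated. The titles place the 48 h libraries at 48 h, while their treatment tag reads 24 h. No time in culture is given for the untreated cells, so drug and time in culture cannot be told apart, and 1 line per hairpin was used, so a difference between the lines cannot be told apart from other differences between them. The labels do not state whether replicates came from separate cultures, and p-values therefore reflect variation among these libraries alone, possibly technical. Of 58735 genes in the table, all 17309 that passed a filter on low counts were members of the comparison.

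5-FU is a uracil analogue. Cells take it up through nucleoside transporters and turn it into fluorinated nucleotides, one of which blocks thymidylate synthase, the enzyme that makes dTMP, while others are built into DNA and into RNA in place of uracil. Shortage of dTMP slows DNA replication and engages the S-phase checkpoint, uracil and fluorouracil in DNA are substrates of base excision repair, and fluorouracil in RNA is known to disturb the processing of ribosomal RNA.

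The 6 libraries held 15237106 to 17695194 counts. Levels are given as CPM, counts scaled to a common library size, with that size adjusted by the trimmed mean of M values, and they are shares of a library, so less RNA per cell and fewer cells with that RNA cannot be told apart. Untreated replicate 2 stood apart from its group in the share of counts from the mitochondrial protein-coding genes, 1.42% against 0.753% and 0.766% in untreated replicates 1 and 3. The 100 most counted genes of each library took 13.9% to 14.3% of counts at 24 h and 17.1% to 17.8% untreated. Of 10 epithelial markers 8 were at 1 CPM or more, among them EPCAM, CDH1, KRT8 and VIL1, and their summed level was 8877 to 9446 CPM at 24 h and 11092 to 12470 CPM untreated. Markers of other cells were low. Fibroblast markers summed to 57.6 to 63.9 CPM at 24 h and 35.5 to 44.6 CPM untreated, with COL3A1, DCN and FAP at 0 in all 6 libraries. COL1A1, LUM and PDGFRB were at 1 CPM or more. Leukocyte markers summed to 42.3 to 42.8 CPM at 24 h and 15 to 17.4 CPM untreated, with the B cell marker MS4A1 at 0, and endothelial markers to 8.45 to 11.3 CPM at 24 h and 3.68 to 4.17 CPM untreated, with KDR at 0. Of the leukocyte markers CD4, CD8A and LYZ were at 1 CPM or more, and of the endothelial ones PECAM1 and VWF.

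After 24 h, 7610 of 17309 genes (44.0%) were called at an adjusted p under 0.05, the Benjamini-Hochberg value of edgeR's quasi-likelihood test. Of the genes tested 21.8% were higher and 22.2% were lower at 24 h, so that 49.5% of the calls were higher. That split was 60.1% under upper-quartile scaling. Large changes were mostly rises: 9.41% of genes rose at least 2-fold and 1.59% fell at least 2-fold. Of genes with a mean under 1 CPM 602 rose and 92 fell at least 2-fold. Genes near 0 untreated that passed the filter through other libraries alone could not be called lower, there or in the lists below. The median log2 change over all genes was -0.01. Direction went with abundance. Among the 4209 genes with a mean of 1 to 10 CPM 32.1% rose and 8.84% fell, while among the 75 genes at 1000 CPM or more 2.67% rose and 85.3% fell. Between them, 10.3% of the 2604 genes at 100 to 1000 CPM rose and 50.65% fell. Whether the counts of the lists below differ from those of other genes of like abundance was not tested. Long intergenic non-coding RNAs rose more often than they fell (23.1% and 5.45% of 935), and processed pseudogenes the reverse (5.02% and 20.3% of 538). The authors' deposited table of the same comparison called 6636 of 17303 of these genes, and 6447 genes were called both there and here, every one of them with the same sign.

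**Figure D1:**
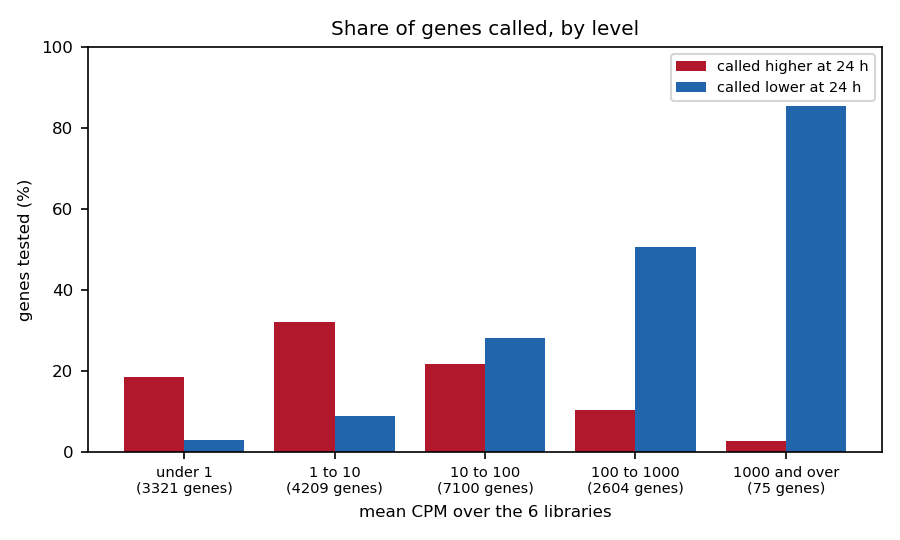
Share of tested genes called higher or lower at 24 h of 5-FU in scramble cells (y axis, percent), by mean CPM over the 6 libraries (x axis, with the number of genes). The share called lower goes up with abundance to 85.3% of the 75 genes at 1000 CPM or more, while the share called higher peaks at 32.1% between 1 and 10 CPM.

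**Figure D2:**
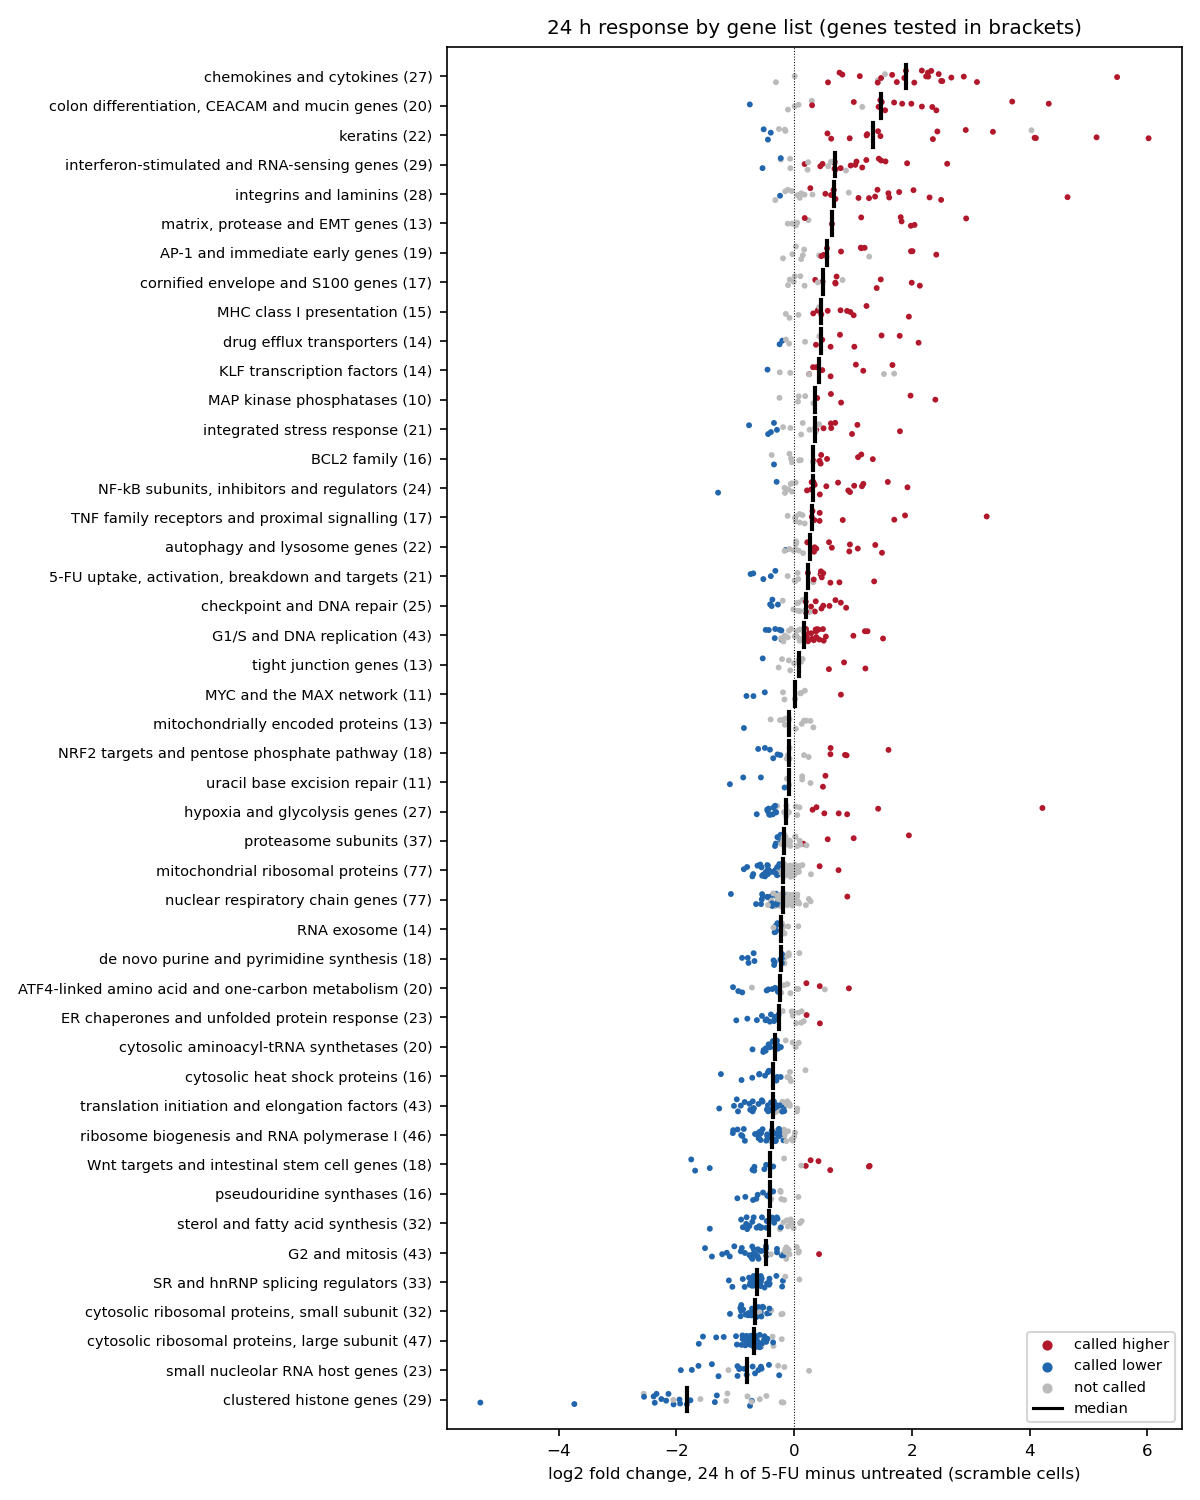
Log2 fold change, 24 h of 5-FU minus untreated, of every tested member of the gene lists shown, each with at least 10 tested members. Each point is 1 gene, red where called higher, blue where called lower and grey where not called, and the black bar is the median, which runs from 1.90 for chemokines and cytokines to -1.82 for clustered histone genes.

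The enzymes that handle 5-FU moved in both directions. Of 21 tested 9 rose and 5 fell (median log2 change 0.23), against 21.8% higher and 22.2% lower over all genes. The target of the drug, thymidylate synthase (TYMS), had 59, 62.9 and 57.3 CPM at 24 h, against 55.7, 56.4 and 58.5 CPM untreated. These groups overlapped, and the log2 change did not pass (0.07 ± 0.07 SE, adjusted p = 0.476). DPYD, which encodes the enzyme that breaks 5-FU down, was barely detected, at 0.230, 0.189 and 0.178 CPM at 24 h, against 0.0732, 0.190 and 0.201 CPM untreated. RRM2, the small subunit of ribonucleotide reductase, had 286, 263 and 286 CPM at 24 h, against 163, 144 and 183 CPM untreated, with every treated library above every untreated one (log2 change 0.77 ± 0.08 SE, adjusted p = 1.63e-07). Thymidine kinase TK1 stood at 0.46 (adjusted p = 8.71e-05) and the large reductase subunit RRM1 at 0.47 on the log2 scale. Cytidine deaminase, CDA, which turns cytidine into uridine, rose 2.57-fold to 15.5, 14.6 and 12.9 CPM in treated libraries, against 5.49, 5.58 and 5.69 CPM in untreated ones (log2 change 1.36 ± 0.15 SE, adjusted p = 3.71e-07). Among the falls were the nucleoside transporter SLC29A2 (-0.74 ± 0.12 SE, adjusted p = 3.27e-05) and the uridine-cytidine kinase family member UCKL1 (-0.69 ± 0.08 SE, adjusted p = 1.06e-06).

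Of 18 genes of purine and pyrimidine synthesis 12 fell and 0 rose (median -0.22). The list also holds HPRT1 (-0.09, not called) and APRT (-0.67 ± 0.08 SE, adjusted p = 8.83e-07), which salvage preformed bases. DHODH, the pyrimidine enzyme of the mitochondrial inner membrane, had 35.5, 36.1 and 34.5 CPM at 24 h, against 63.8, 69.4 and 62.5 CPM untreated (log2 change -0.88 ± 0.09 SE, adjusted p = 7.5e-08). PFAS and IMPDH2, of the purine route, stood at -0.79 and -0.78. In uracil base excision repair 2 of 11 rose and 4 fell, against 21.8% and 22.2% of all genes. LIG3, a DNA ligase that seals repaired nicks, was 2.13-fold lower, with 21.2, 25.6 and 25.3 CPM at 24 h, against 50.4, 51.7 and 51.6 CPM untreated (log2 change -1.09 ± 0.08 SE, adjusted p = 2.41e-09), and the abasic-site endonuclease APEX1 also fell (-0.86 ± 0.07 SE, adjusted p = 1.13e-08). XRCC1, a scaffold protein that binds LIG3, rose (0.53 ± 0.10 SE, adjusted p = 0.000189), and the uracil glycosylase UNG stood at -0.12 and was not called. Of 16 genes of pseudouridine synthases, which modify uridine in RNA, and of the box H/ACA proteins NHP2, NOP10 and GAR1, 10 fell and 0 rose (median -0.42). NHP2 (-0.64) and NOP10 (-0.46) were among the falls, with the synthase gene RPUSD4 at 44.7, 46.3 and 45.4 CPM in treated and 85.5, 91.9 and 88.7 CPM in untreated libraries (log2 change -0.96 ± 0.09 SE, adjusted p = 1.78e-08). The catalytic subunit of the box H/ACA complex, DKC1, fell as well (-0.70 ± 0.07 SE, adjusted p = 2.17e-07).

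The cell cycle genes split by phase. Genes of the G1/S transition and of DNA replication rose in 21 of 43 cases and fell in 7 (median 0.18), while genes of G2 and mitosis fell in 29 of 43 and rose in 1 (median -0.48), against 21.8% higher and 22.2% lower over all genes. Cyclin E1, CCNE1, which drives entry into S phase with CDK2, had 27.7, 26.2 and 28 CPM at 24 h, against 7.83, 9.96 and 10.9 CPM untreated, the treated libraries all above the untreated ones (log2 change 1.51 ± 0.14 SE, adjusted p = 4.54e-08). CCNE2 (1.20 ± 0.11 SE, adjusted p = 2.79e-08), E2F2 (1.25 ± 0.10 SE, adjusted p = 3.53e-09) and E2F8 (1.01 ± 0.08 SE, adjusted p = 4.49e-09) rose too, and so did the origin licensing factors CDC6 and CDT1, by 0.42 and 0.43. The 7 that fell included the replicative helicase genes MCM7 (-0.48), MCM6 (-0.43) and MCM5 (-0.33). Of the D-type cyclins and G1 kinases, 9 in all, CCND3 (0.79 ± 0.08 SE, adjusted p = 6.22e-08) and CDK2 (0.54 ± 0.07 SE, adjusted p = 1.12e-06) rose and 3 fell, among them CCND1 (-0.31 ± 0.08 SE, adjusted p = 0.00263).

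Among the mitotic genes HMMR, which encodes a spindle-associated protein, fell most of those tested, with 29.1, 31.7 and 31.5 CPM at 24 h, against 88.1, 78.3 and 97.1 CPM untreated (log2 change -1.51 ± 0.09 SE, adjusted p = 3.04e-11). The kinase PLK1, needed for mitotic entry and spindle assembly, had 93.8, 107 and 98.4 CPM in treated and 257, 272 and 258 CPM in untreated libraries. CDC20, an activator of the anaphase-promoting complex, had 109.8, 124 and 113 CPM in treated and 276, 279 and 253 CPM in untreated libraries. Both groups were apart for each of them, by 2.63-fold for PLK1 and 2.33-fold for CDC20. The motor gene CENPE (-1.14 ± 0.12 SE, adjusted p = 1.08e-07), the motor KIF20A (-1.09), the kinase AURKA (-1.02) and cyclin B1, CCNB1 (-0.76), were lower as well. CDK1, the kinase bound by cyclin B1, stood at 0.05 and was not called, nor was MKI67 (-0.15). The exception was FOXM1, the transcription factor of many of these genes, which rose to 334, 330.2 and 329 CPM at 24 h, against 246, 254 and 240.4 CPM untreated (log2 change 0.42 ± 0.07 SE, adjusted p = 3.23e-05).

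Promoters of the mitotic genes are shown because many share short elements. The cell cycle genes homology region (CHR), TTTGAA, is known to be bound by the DREAM and MuvB complexes, and CCAAT by NF-Y. In the 250 bases before the start of each gene, either strand, TTTGAA was found in 14 of 24 mitotic genes called lower that had an entry among RefSeq promoters (GRCh38.p14), against 8.29% of 11036 tested protein-coding genes with an entry and 13.6% of all 27305 promoters. CCAAT was found in 20 of the 24, against 34.9% and 33.0%. None of 17 promoters of G1/S genes called higher held TTTGAA and 10 held CCAAT. GGCGGGAA, searched as the E2F motif, was in 1 of the 17, against 4.49% of tested protein-coding genes and 2.77% of all promoters. The first start listed for each gene was used, 11 motifs were searched in all, and a match describes letters, not binding. The 120 bases before the start of 3 genes that fell are given 5′ to 3′, with TTTGAA and CCAAT, on either strand, in capitals.
PLK1 (chr16:23678769-23678888, plus strand): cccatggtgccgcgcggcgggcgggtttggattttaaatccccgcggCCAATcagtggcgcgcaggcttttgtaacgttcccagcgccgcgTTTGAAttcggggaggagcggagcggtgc
CDC20 (chr1:43358861-43358980, plus strand): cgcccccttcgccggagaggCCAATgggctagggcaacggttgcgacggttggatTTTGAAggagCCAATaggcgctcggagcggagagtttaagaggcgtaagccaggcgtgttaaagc
CCNB1 (chr5:69167030-69167149, plus strand): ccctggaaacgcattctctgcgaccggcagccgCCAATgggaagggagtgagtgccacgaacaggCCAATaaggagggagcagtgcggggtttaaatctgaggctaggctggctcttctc

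Histone genes of the chromosomal clusters, whose products package newly made DNA, had the lowest median of the lists with at least 10 tested genes. Of 71 such genes 29 passed the filter on low counts, and 18 of the 29 fell while 0 rose (median -1.82). Of the 29, 13 passed that filter only through 48 h or shATF4 libraries. Of the 16 that passed it in the 6 libraries of the comparison alone, a subset chosen after the values were seen, 12 fell and 0 rose (median -1.55), and 10 fell when only those libraries were fitted. A gene that passed through the untreated libraries alone had to be lower at 24 h, so these counts are a description. Over all genes 22.2% fell. HIST1H2AC had 2.53, 1.89 and 2.37 CPM at 24 h, against 12.5, 10.7 and 11.3 CPM untreated (log2 change -2.34 ± 0.15 SE, adjusted p = 1.14e-10). HIST1H2BK had 5.69, 4.90 and 6.63 CPM in treated and 25, 21 and 20.8 CPM in untreated libraries, and HIST3H2A had 2.59, 2.39 and 2.13 CPM in treated and 10.2, 12.2 and 9.71 CPM in untreated libraries. In all of these the untreated libraries stood well above the treated ones. The linker histone gene HIST1H1E had 1 count over the 3 treated libraries and 48 counts over the untreated ones, a ratio of 54.3 in favour of untreated cells (95% exact binomial interval 9.29 to 2189, counting error only). Libraries were made from poly(A) RNA, and most clustered histone transcripts have no poly(A) tail, so these counts cover a part of histone RNA. At 48 h against 24 h 15 of the 16 rose and 0 fell, and their median at 48 h stood 1.10 above untreated cells on the log2 scale. HIST1H2AC reached 26.8 and 30.6 CPM at 48 h.

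**Figure D3:**
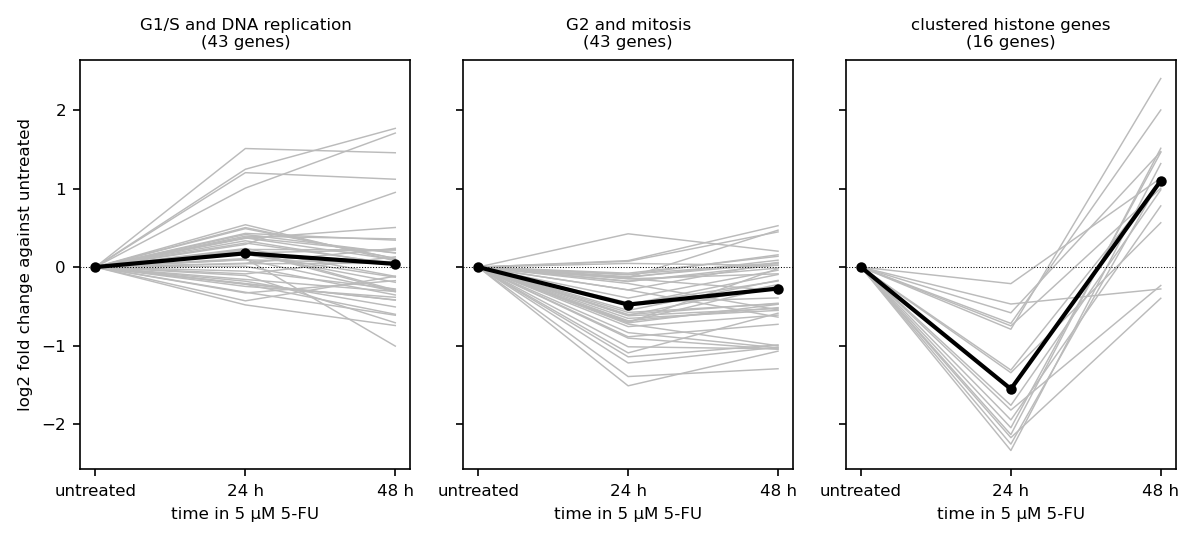
Log2 fold change against untreated scramble cells at 24 h and 48 h of 5-FU for the tested genes of 3 lists (grey lines; of histone genes, the 16 that passed the filter in the 6 libraries of the comparison) with the median (black). The histone genes have a median of -1.55 at 24 h and 1.10 at 48 h, mitotic genes are lowest at 24 h with a median of -0.48, and G1/S genes stay near 0 with medians of 0.18 and 0.04.

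Of 8 inhibitors of cyclin-dependent kinases 4 rose, 2 fell and 2 were not called, against 21.8% higher and 22.2% lower over all genes. The falls were in CDKN1B (p27, -0.36 ± 0.08 SE, adjusted p = 0.00148) and CDKN3 (-0.37 ± 0.11 SE, adjusted p = 0.0083). CDKN1A (p21; chromosome 6, 36676460 to 36687339, plus strand, GRCh38), which binds and stops cyclin-CDK complexes, had 18.4, 20.4 and 21.1 CPM at 24 h, against 2.27, 1.08 and 0.737 CPM untreated, and rose 14.9-fold (log2 change 3.90 ± 0.20 SE, adjusted p = 5.38e-12). CDKN2B (p15), an inhibitor of CDK4 and CDK6, had 71.5, 76.2 and 75.5 CPM in treated and 25.8, 26.6 and 21.9 CPM in untreated libraries, a 3.0-fold rise (log2 change 1.59 ± 0.10 SE, adjusted p = 6.85e-11). CDKN2D (0.93 ± 0.14 SE, adjusted p = 2.51e-05) and CDKN1C (0.58 ± 0.15 SE, adjusted p = 0.00309) followed.

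In the BCL2 family 8 of 16 rose and 1 fell, against 21.8% higher and 22.2% lower over all genes. The 1 that fell was BCL2L11 (BIM), itself a promoter of cell death (-0.34 ± 0.11 SE, adjusted p = 0.015). PMAIP1 (NOXA), an activator of cell death, had 42.4, 38.2 and 41.2 CPM at 24 h, against 17.9, 18.6 and 18.7 CPM untreated (log2 change 1.14 ± 0.09 SE, adjusted p = 6.12e-09). BOK (1.34 ± 0.27 SE, adjusted p = 0.00046) and BBC3 (1.09 ± 0.28 SE, adjusted p = 0.00304) also promote cell death, as does BAD (0.56 ± 0.12 SE, adjusted p = 0.000499), whereas BCL2L1, which encodes the survival protein BCL-XL, also rose (0.45 ± 0.06 SE, adjusted p = 2.3e-06). MCL1 stood at 0.11 and BAX at -0.08, and neither was called. Of 25 checkpoint and DNA repair genes 12 rose and 4 fell (median 0.20), against the same shares of all genes. EXO1, a nuclease of mismatch repair and of end resection, had 85, 80.1 and 88 CPM at 24 h, against 45.6, 43.1 and 48.6 CPM untreated (log2 change 0.88 ± 0.08 SE, adjusted p = 1.98e-08). The helicase BRIP1 (0.79 ± 0.09 SE, adjusted p = 4.18e-07) and its partner BRCA1 (0.70 ± 0.08 SE, adjusted p = 2.77e-07) act in homologous recombination and rose as well.

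Inflammatory signals rose widely. Of 38 chemokine and cytokine genes 27 were tested. Of these 23 rose and 0 fell (median 1.90, or 3.73-fold), against 21.8% and 22.2% of all genes. Members near 0 untreated could not be called lower, so these counts are a description. CXCL8 (interleukin 8; chromosome 4, 73740506 to 73743716, plus strand), a neutrophil attractant, had 103, 70 and 86.2 CPM at 24 h, against 14.4, 12.6 and 13.7 CPM untreated (log2 change 2.67 ± 0.16 SE, adjusted p = 5.41e-11), and CXCL6, a close relative, had 59.8, 51.2 and 60.6 CPM at 24 h, against 11.3, 10.1 and 8.57 CPM untreated (log2 change 2.52 ± 0.13 SE, adjusted p = 4.7e-12). CCL20, which attracts cells through CCR6, had 52.5, 42 and 48.2 CPM at 24 h, against 10.5, 9.38 and 9.65 CPM untreated (log2 change 2.27 ± 0.14 SE, adjusted p = 5.3e-11). IL23A, a subunit of interleukin 23, had 67.2, 71.7 and 66.1 CPM at 24 h, against 16.5, 17 and 16.3 CPM untreated (log2 change 2.04 ± 0.14 SE, adjusted p = 4.98e-10). Treated libraries were all above untreated ones for these 4. Further members were CXCL1 (1.74), CX3CL1 (1.48), IL32 (2.17), lymphotoxin beta LTB (2.46) and the colony-stimulating factors CSF1 (2.28) and CSF3 (2.50 ± 0.43 SE, adjusted p = 7.79e-05). CSF2, the factor for granulocytes and macrophages, had 68 counts over the treated libraries and 1 count over the untreated ones, a ratio of 60.1 (95% exact binomial interval 10.4 to 2408, counting error only). CXCL1, CXCL2 and CXCL3 are close copies that can share reads. TNF was below 1 CPM throughout, at 0.805, 0.880 and 0.829 CPM at 24 h, against 0.0732, 0 and 0.201 CPM untreated, and its log2 change of 3.11 (adjusted p = 0.00119) was 4.34 without untreated replicate 3 and 2.52 without untreated replicate 2.

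NF-κB, a family of transcription factors held back by IκB proteins, is known to drive many of these genes. Of 24 subunits, inhibitors and regulators 15 rose and 2 fell (median 0.31), against 21.8% higher and 22.2% lower over all genes. The precursor of the non-canonical subunit p52, NFKB2, had 65.8, 68.8 and 67.8 CPM at 24 h, against 23, 24.7 and 19.4 CPM untreated (log2 change 1.59 ± 0.10 SE, adjusted p = 1.14e-10). Its partner RELB (1.18 ± 0.15 SE, adjusted p = 2.4e-06), the nuclear IκB protein BCL3 (1.93 ± 0.17 SE, adjusted p = 2.04e-08) and the feedback inhibitors TNFAIP3 (A20, 1.02) and NFKBIA (IκBα, 0.30) were also called higher. The canonical subunits RELA (-0.06) and NFKB1 (-0.16) were not called. IKBKB, the kinase that marks IκB for destruction, fell to 16.9, 18.4 and 18.5 CPM in treated libraries, against 43.5, 48.1 and 39.9 CPM in untreated ones (log2 change -1.29 ± 0.10 SE, adjusted p = 1.35e-09). Of 17 TNF-family receptors and adaptors 9 rose and 0 fell, with TNFRSF1B (TNF receptor 2) at 208, 219.9 and 207 CPM at 24 h, against 120.0, 123 and 115 CPM untreated (log2 change 0.83 ± 0.07 SE, adjusted p = 1.15e-08). The death receptor FAS rose as well (1.70 ± 0.30 SE, adjusted p = 0.000108).

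The promoters of 3 chemokine genes that rose are shown because each holds a κB element near the start. The κB consensus was found on either strand in the 250 bases before the start in 8 of 16 chemokine and cytokine genes called higher that had a RefSeq entry, against 5.98% of tested protein-coding genes and 5.05% of all promoters. The 9-letter form GGAATTTCC was in 5 of the 16, against 0.399% and 0.428%. Among NF-κB regulators called higher, 4 of 13 held the consensus. It was not particular to these lists. Of genes called higher, 4 of 8 of MHC class I presentation, 5 of 13 interferon-stimulated and 4 of 12 integrin and laminin genes held it. It was in 0 of 8 AP-1 and immediate early genes, 0 of 6 matrix, protease and EMT genes and 0 of 17 G1/S genes. Capitals mark the consensus or the 9-letter form in the 120 bases before the start (GRCh38.p14). In CXCL1 overlapping matches run together.
CXCL8 (chr4:73740449-73740568, plus strand): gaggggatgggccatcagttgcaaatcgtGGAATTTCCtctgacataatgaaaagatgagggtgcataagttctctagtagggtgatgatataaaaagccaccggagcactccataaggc
CCL20 (chr2:227813722-227813841, plus strand): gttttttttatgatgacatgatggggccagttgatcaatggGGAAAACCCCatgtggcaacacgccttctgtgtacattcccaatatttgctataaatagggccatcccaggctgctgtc
CXCL1 (chr4:73869273-73869392, plus strand): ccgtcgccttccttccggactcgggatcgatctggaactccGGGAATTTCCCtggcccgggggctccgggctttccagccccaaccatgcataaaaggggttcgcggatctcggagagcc

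Interferon-stimulated and RNA-sensing genes rose in 19 of 29 tested cases and fell in 2 (median 0.69), against 21.8% and 22.2% of all genes. OAS1, an enzyme activated by double-stranded RNA, had 25.4, 23.7 and 23.4 CPM at 24 h, against 9.0, 8.81 and 6.90 CPM untreated (log2 change 1.55 ± 0.13 SE, adjusted p = 9.83e-09). Its relatives OASL (2.60 ± 0.35 SE, adjusted p = 4.04e-06) and OAS2 (1.44), the membrane tetherin BST2 (1.92 ± 0.27 SE, adjusted p = 7.52e-06) and the antiviral GTPase MX1 (1.16) rose too. ISG15 stood at 0.69 and the cytosolic RNA sensor DDX58 (RIG-I) at 0.96, both called, whereas MX2 fell (-0.54). Of 15 genes of MHC class I presentation 10 rose and 0 fell (median 0.46). The immunoproteasome subunits PSMB9 (1.95 ± 0.22 SE, adjusted p = 4.01e-07) and PSMB8 (1.01 ± 0.11 SE, adjusted p = 1.93e-07), the peptide transporter TAP1 (0.96 ± 0.10 SE, adjusted p = 1.86e-07) and the transactivator NLRC5 (1.23 ± 0.27 SE, adjusted p = 0.000864) led. Of the heavy chains HLA-E (0.90) and HLA-B (0.79) rose, while HLA-C (0.07) was not called. HLA genes are close copies that can share reads. The interferon-stimulated response element, searched as GAAA, any 2 bases and GAAA on either strand, was in 8 of 13 promoters of interferon-stimulated genes called higher and in 5 of 8 of MHC class I presentation genes called higher, against 2.20% of tested protein-coding genes and 3.07% of all promoters.

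In the EGF receptor family and its ligands 8 of 9 tested members rose and 0 fell (median 1.35). Over all genes 21.8% rose and 22.2% fell. Amphiregulin, AREG, had 8.45, 8.23 and 8.05 CPM at 24 h, against 1.02, 0.824 and 0.804 CPM untreated, a 9.30-fold rise (log2 change 3.22 ± 0.17 SE, adjusted p = 6.23e-12), and epiregulin, EREG, had 13.2, 10.4 and 13.8 CPM at 24 h, against 4.61, 3.30 and 2.68 CPM untreated (log2 change 1.83 ± 0.17 SE, adjusted p = 2.16e-08). HBEGF, another ligand, stood at 1.09. The receptor EGFR itself was low, at 2.07, 2.07 and 2.01 CPM at 24 h, against 0.293, 0.634 and 0.134 CPM untreated. Its log2 change was 2.49 ± 0.39 SE, adjusted p = 3.1e-05, and 3.24 without untreated replicate 2. Of 19 AP-1 and immediate early genes 10 rose and 0 fell (median 0.55), led by EGR3 at 18.7, 22.4 and 19.9 CPM at 24 h, against 3.59, 4.69 and 3.08 CPM untreated (log2 change 2.42 ± 0.16 SE, adjusted p = 1.59e-10), FOSB (2.01 ± 0.26 SE, adjusted p = 2.38e-06) and FOS (1.99 ± 0.19 SE, adjusted p = 4.91e-08). JUN (-0.03) and EGR1 (0.17) were not called. The MAP kinase phosphatases, which switch off the kinases upstream of these factors, rose in 5 of 10 cases. DUSP5, specific for nuclear ERK, had 36.3, 38.3 and 40.1 CPM at 24 h, against 7.32, 6.72 and 7.70 CPM untreated, with a log2 change of 2.40 ± 0.10 SE, adjusted p = 2.33e-13.

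Keratins are the intermediate filament proteins of epithelia. Of 55 keratin genes 22 were tested, and 15 rose and 3 fell (median 1.33, or 1.24 with the 2 members that had no untreated count set at their bound). Here too members near 0 untreated could not be called lower, so these counts are a description. Over all genes 21.8% rose and 22.2% fell. KRT17, a keratin of stressed and basal epithelium, had 16.3, 18.7 and 16.5 CPM at 24 h, against 1.39, 1.90 and 1.61 CPM untreated (log2 change 3.38 ± 0.16 SE, adjusted p = 2.28e-12). KRT6A (4.11 ± 0.30 SE, adjusted p = 1.09e-09) and KRT6B (4.09 ± 0.33 SE, adjusted p = 3.38e-09), keratins of wounded skin, rose as well, and they are near-identical copies that can share reads. KRT81 (2.43), KRT23 (1.43) and KRT7 (1.24) were also called higher. The keratins of simple epithelium KRT8 (-0.45 ± 0.07 SE, adjusted p = 1.55e-05) and KRT18 (-0.40) fell, and KRT19 (-0.15) was not called. KRT8 alone had 4770.0, 5216 and 4798 CPM at 24 h, against 6417, 7552 and 6159.7 CPM untreated.

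**Figure D4:**
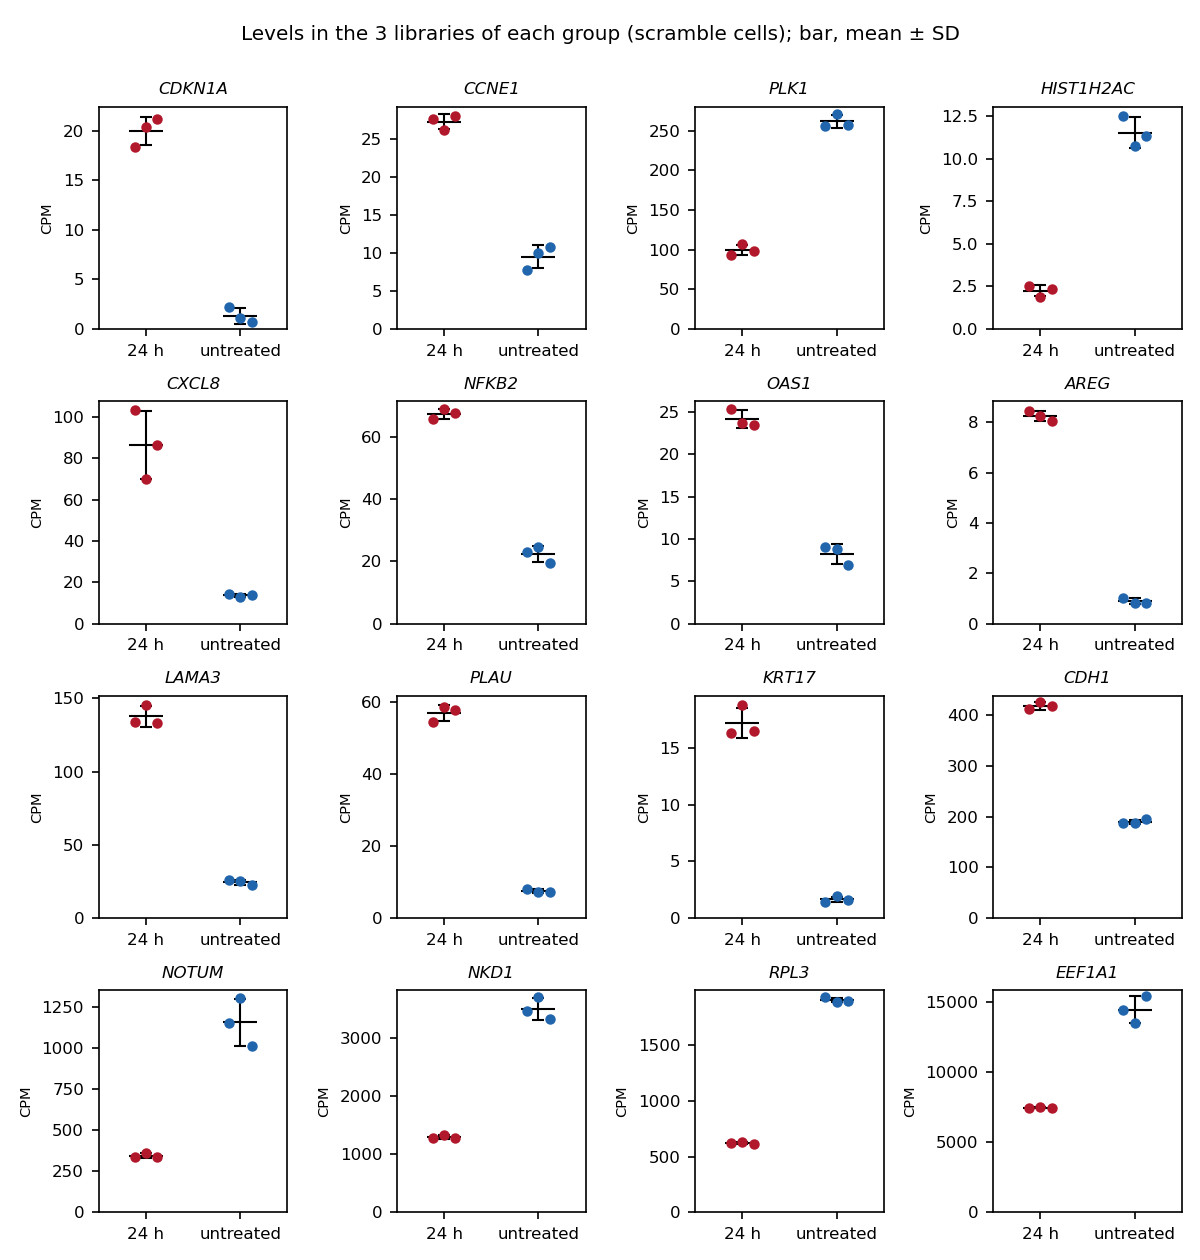
CPM (y axis, from 0, own scale per gene) of 16 genes in each of the 3 libraries at 24 h of 5-FU (red) and the 3 untreated libraries (blue) of scramble cells, with mean ± SD. The 16 genes were picked among called genes, so their separation is no measure of how many genes separate. CDKN1A ran from 18.4 to 21.1 CPM at 24 h and from 0.737 to 2.27 CPM untreated. RPL3 ran from 608 to 629 CPM at 24 h and from 1884 to 1925 CPM untreated.

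Of 20 tested genes of colon differentiation, CEACAM and mucin families 14 rose and 1 fell (median 1.48). The membrane mucin MUC13 stood at 1.49, MUC1 at 1.44, CEACAM6 at 2.17 and CEACAM5 at 1.55, all called. The gel-forming mucin MUC5AC had 5.23, 5.91 and 6.10 CPM at 24 h, against 0.586, 1.78 and 0.938 CPM untreated (log2 change 2.35 ± 0.26 SE, adjusted p = 3.23e-07). Guanylin, GUCA2A, had 53 counts over the treated libraries and 2 counts over the untreated ones, a ratio of 23.4 (95% exact binomial interval 6.17 to 198, counting error only). VIL1, villin of the brush border, fell instead (-0.75 ± 0.06 SE, adjusted p = 2.99e-09). E-cadherin, CDH1, the adhesion molecule of epithelia, was among the 6 protein-coding genes that gained most CPM, with 411, 426 and 418 CPM at 24 h, against 187, 188 and 194 CPM untreated (log2 change 1.14 ± 0.06 SE, adjusted p = 2.43e-11). Of 13 tight junction genes 3 rose, near the 21.8% of all genes, and 5 did without both untreated replicate 2 and shATF4 24 h replicate 3 or with only the samples compared and the replicate block. Among the 3 were CLDN7 (1.21 ± 0.28 SE, adjusted p = 0.0015) and CLDN1 (0.59 ± 0.07 SE, adjusted p = 1.71e-06), and 1 gene fell. Of 17 cornified envelope and S100 genes 9 rose and 0 fell, and S100A2 had 24.2, 29.3 and 23.5 CPM at 24 h, against 6.81, 5.33 and 5.43 CPM untreated (log2 change 2.14 ± 0.26 SE, adjusted p = 1.37e-06).

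Genes of contact with the matrix rose in 17 of 28 integrin and laminin cases and fell in 1 (median 0.67). The shares over all genes were 21.8% higher and 22.2% lower. LAMA3, a laminin alpha chain of epithelial basement membranes, had 134, 146 and 133 CPM at 24 h, against 25.7, 25 and 22.4 CPM untreated, a 5.65-fold rise (log2 change 2.50 ± 0.08 SE, adjusted p = 1.22e-14), and the beta chain LAMB3 stood at 0.70. Of the laminin receptor subunits ITGA3 (1.27) and ITGA7 (0.67) were called higher and ITGB4 (0.06) was not called. ITGA6, also such a subunit, was the 1 gene that fell (-0.24 ± 0.08 SE, adjusted p = 0.0135). ITGB7 (2.30 ± 0.13 SE, adjusted p = 1.72e-11) and the fibronectin receptor subunit ITGA5 (1.42) rose as well. Of 13 matrix, protease and EMT genes 8 rose and 0 fell (median 0.64, and 0.37 without untreated replicate 2). Urokinase, PLAU, a protease that activates plasminogen, had 54.4, 58.6 and 57.6 CPM at 24 h, against 8.12, 7.23 and 7.17 CPM untreated, and its receptor PLAUR had 11.9, 11.4 and 12.6 CPM in treated and 2.93, 3.80 and 3.35 CPM in untreated libraries. PLAU rose 7.58-fold and PLAUR 3.55-fold. MMP7 (1.98 ± 0.16 SE, adjusted p = 2.89e-09) and MMP14 (1.81) rose too. The mesenchymal genes VIM (-0.03), FN1 (-0.11) and ZEB1 (0.05) were not called. Of the fibroblast markers 4 were tested and 3 rose, PDGFRB (2.48 ± 0.19 SE, adjusted p = 2.15e-09), THY1 (2.29) and COL1A1 (0.89), while COL3A1, DCN and FAP were at 0, and the part of other cells in these values was not tested.

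Wnt targets and stem cell genes of the intestine divided, with 6 of 18 higher and 10 lower (median -0.42). Over all genes 21.8% were higher and 22.2% lower. The falls included feedback inhibitors of the pathway, which are standard targets of β-catenin. NOTUM, an enzyme that inactivates Wnt proteins, had 336, 362 and 335 CPM at 24 h, against 1149.9, 1304 and 1014 CPM untreated (log2 change -1.75 ± 0.10 SE, adjusted p = 3.1e-11). NKD1, a Dishevelled antagonist, had 1275, 1334 and 1284 CPM at 24 h, against 3478, 3709.5 and 3328 CPM untreated (log2 change -1.43 ± 0.06 SE, adjusted p = 5.93e-13). AXIN2 stood at -0.71 and the stem cell factor ASCL2 at -1.68 ± 0.11 SE, adjusted p = 2.53e-10. Other genes of the list went up, TNFRSF19 (1.28 ± 0.09 SE, adjusted p = 1.12e-09) and LEF1 (1.27) most of those tested, and LGR5 by 0.20. MYC, a target of both Wnt and growth signals, had 242, 245 and 229 CPM at 24 h, against 379, 389 and 389 CPM untreated and fell 1.61-fold (log2 change -0.69 ± 0.06 SE, adjusted p = 1.08e-08), while its antagonist MXD1 rose (0.79 ± 0.09 SE, adjusted p = 8.97e-07).

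Some genes best known from blood cells rose in these cells as well. PRF1, perforin, the pore-forming protein of cytotoxic lymphocytes, had 314, 339 and 319.6 CPM at 24 h, against 106, 111 and 92 CPM untreated (log2 change 1.65 ± 0.09 SE, adjusted p = 7.51e-12). CD4 had 25.9, 26.1 and 24.6 CPM in treated and 13, 12.2 and 10.1 CPM in untreated libraries and LYZ, lysozyme, 14.5, 14.3 and 15.5 CPM in treated and 3.0, 2.73 and 4.02 CPM in untreated libraries. Each of the 3 was present untreated and higher at 24 h in every library. TRAC, the constant region of the T cell receptor alpha chain, had 4.08, 3.77 and 3.61 CPM at 24 h, against 0.146, 0.317 and 0.536 CPM untreated (log2 change 3.47 ± 0.37 SE, adjusted p = 1.82e-07). Of 5 leukocyte markers tested 3 rose and 0 fell, and their summed level was 42.3 to 42.8 CPM at 24 h and 15 to 17.4 CPM untreated, while MS4A1 was at 0 in all 6 libraries, and the part of other cells in these values was not tested.

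The most abundant falls came from the machinery of protein synthesis. Of 47 genes of the large ribosomal subunit 43 fell and 0 rose (median -0.69), and of 32 genes of the small subunit 28 fell and 0 rose (median -0.66). Over all genes 22.2% fell. Among abundant genes the share was higher, at 50.65% for a mean of 100 to 1000 CPM and 85.3% at 1000 CPM or more. RPL3, at the peptidyl transferase centre, had 618, 629 and 608 CPM at 24 h, against 1925, 1884 and 1894 CPM untreated, a 3.07-fold fall (log2 change -1.62 ± 0.05 SE, adjusted p = 2.03e-14). RPL10A (-1.55 ± 0.10 SE, adjusted p = 9.39e-11), RPL12 (-1.32 ± 0.12 SE, adjusted p = 2.05e-08) and RPL13A (-1.20 ± 0.07 SE, adjusted p = 3.65e-11) followed, and RPS9 (-0.91 ± 0.08 SE, adjusted p = 1.91e-08) and RPS14 (-0.91 ± 0.15 SE, adjusted p = 6.86e-05) in the small subunit. Many ribosomal protein genes have processed copies that can share reads. Together the tested large-subunit genes summed to 24000 CPM at 24 h and 41480 CPM untreated, and small-subunit genes to 16870 CPM at 24 h and 26910 CPM untreated. Translation factors went the same way, 33 of 43 lower and 0 higher (median -0.37). The elongation factor EEF1A1 had 7443, 7511 and 7459.7 CPM at 24 h, against 14430.0, 13519 and 15462 CPM untreated (log2 change -0.95 ± 0.06 SE, adjusted p = 4.19e-11), EEF2 had 2325, 2551 and 2356 CPM at 24 h, against 4644, 5231 and 4336 CPM untreated, and the initiation factor EIF4B had 433, 423 and 441 CPM at 24 h, against 1036, 1032 and 1067 CPM untreated (log2 change -1.27 ± 0.06 SE, adjusted p = 5.93e-13).

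Start sites of these genes are shown because mRNAs of the ribosome are known to begin with a C and a run of pyrimidines (the TOP motif), through which mTORC1 controls their translation and stability. A C followed by at least 4 pyrimidines, beginning within 5 bases of the listed start on the coding strand, was found for 28 of 35 large-subunit genes, 17 of 22 small-subunit genes and 13 of 26 translation factors called lower that had an entry. The share was 22.4% of tested protein-coding genes and 21.1% of all promoters. The 30 bases around the start are given 5′ to 3′ (GRCh38.p14), 15 on each side, with that run in capitals.
RPL3 (chr22:39319609-39319638, minus strand): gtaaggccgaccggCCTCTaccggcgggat
RPL13A (chr19:49487593-49487622, plus strand): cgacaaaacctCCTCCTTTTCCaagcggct
EEF1A1 (chr6:73521018-73521047, minus strand): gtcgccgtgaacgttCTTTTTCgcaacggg
EIF4B (chr12:53006441-53006470, plus strand): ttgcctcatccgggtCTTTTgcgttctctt

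Other steps of making ribosomes and proteins were lower too. In ribosome biogenesis and RNA polymerase I 34 of 46 fell and 0 rose (median -0.37). Nucleophosmin, NPM1, a chaperone of the nucleolus, had 831, 790.5 and 816 CPM at 24 h, against 1710.5, 1466 and 1818 CPM untreated (log2 change -1.03 ± 0.08 SE, adjusted p = 2.06e-09), and the box C/D protein NOP56 had 316, 318 and 316 CPM in treated and 619, 603 and 629.9 CPM in untreated libraries. Host genes of small nucleolar RNAs fell in 19 of 23 tested cases with 0 rising (median -0.81), SNHG4 with 15.9, 15.7 and 17.2 CPM at 24 h, against 57.7, 48.4 and 56.6 CPM untreated (log2 change -1.74 ± 0.09 SE, adjusted p = 1.43e-11) and SNHG5 at -1.40 (adjusted p = 6.7e-06). Of 77 mitochondrial ribosomal protein genes 34 fell and 2 rose (median -0.19). Cytosolic aminoacyl-tRNA synthetases, which load tRNAs, fell in 16 of 20 cases, with VARS at -0.71 and MARS at -0.52. Splicing regulators of the SR and hnRNP families fell in 31 of 33 cases (median -0.63), with HNRNPA1 at 1173, 1162 and 1196 CPM at 24 h, against 2501, 2358 and 2449 CPM untreated (log2 change -1.05 ± 0.08 SE, adjusted p = 2.18e-09). HNRNPA1 has many processed copies that can share reads. Cytosolic heat shock genes fell in 11 of 16 cases. HSPA8, the constitutive HSP70, had 1260.5, 1257 and 1257 CPM at 24 h, against 2939, 2755 and 3245 CPM untreated (log2 change -1.24 ± 0.08 SE, adjusted p = 7.78e-11), and HSP90AB1 stood at -0.89 ± 0.05 SE, adjusted p = 3.04e-11. Of 37 proteasome subunit genes 4 rose and 10 fell, and the count of falls ran from 2 to 21 over the alternatives. Over all genes 22.2% fell. Of 14 RNA exosome genes 6 fell and 0 rose, and the count of falls was 3 under upper-quartile scaling and 11 without both untreated replicate 2 and shATF4 24 h replicate 3.

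Stress and metabolic programmes gave mixed results. For their counts, 21.8% of all genes rose and 22.2% fell, and at a mean of 100 to 1000 CPM 10.3% rose and 50.65% fell. The integrated stress response slows translation through eIF2α and raises ATF4 protein. Of 21 of its genes 8 rose and 5 fell. ATF4 mRNA was lower at 24 h, with 270.1, 285 and 280.1 CPM at 24 h, against 388, 364 and 384 CPM untreated (log2 change -0.44 ± 0.09 SE, adjusted p = 0.000259). The secreted factor GDF15 had 135, 150.2 and 138 CPM at 24 h, against 37.7, 44.6 and 39.4 CPM untreated (log2 change 1.80 ± 0.08 SE, adjusted p = 7.69e-13), and SESN2, a brake on mTORC1, rose as well (1.07 ± 0.15 SE, adjusted p = 5.52e-06), while the hormone STC2 fell (-0.77 ± 0.09 SE, adjusted p = 4.95e-07). ATF4-linked amino acid and one-carbon genes fell in 9 of 20 cases and rose in 3. The amino acid transporter SLC7A5 had 371, 403 and 365 CPM at 24 h, against 740.0, 874 and 724 CPM untreated (log2 change -1.04 ± 0.10 SE, adjusted p = 5.36e-08), and PYCR1, of proline synthesis, stood at -0.88 ± 0.08 SE, adjusted p = 2.62e-08. ER chaperone and unfolded protein response genes fell in 12 of 23 cases and rose in 2, with HSPA5 (BiP) at 461, 494 and 476 CPM at 24 h, against 965, 892 and 968 CPM untreated (log2 change -0.98 ± 0.06 SE, adjusted p = 2.97e-11).

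Sterol and fatty acid synthesis genes fell in 22 of 32 cases and rose in 0 (median -0.42). INSIG1, a sterol-regulated brake on SREBP, had 13.6, 10.6 and 10.7 CPM at 24 h, against 33.5, 27.6 and 33.1 CPM untreated (log2 change -1.43 ± 0.11 SE, adjusted p = 2.53e-09). HMGCS1 (-0.90 ± 0.09 SE, adjusted p = 1.16e-07) and FASN (-0.81 ± 0.14 SE, adjusted p = 6.83e-05) fell as well. In hypoxia and glycolysis 7 of 27 rose and 11 fell, against 21.8% and 22.2% of all genes. EPAS1 (HIF-2α) was low, with 2.93, 3.33 and 2.96 CPM at 24 h, against 0.0732, 0.254 and 0.134 CPM untreated (log2 change 4.22 ± 0.39 SE, adjusted p = 2.98e-08), and HK1 rose (0.76 ± 0.06 SE, adjusted p = 1.73e-09) where HK2 fell (-0.45). NRF2 targets divided, with 5 of 18 higher, among them HMOX1 (1.60 ± 0.21 SE, adjusted p = 3.81e-06), and 6 lower. Autophagy and lysosome genes rose in 12 of 22 cases and fell in 1 (median 0.26), led among those above 1 CPM by WIPI1 (1.38 ± 0.18 SE, adjusted p = 3.28e-06) and GABARAPL1 (1.08 ± 0.20 SE, adjusted p = 0.000198) beside CTSS (1.49). Drug efflux transporters rose in 8 of 14 cases and fell in 2, and ABCB1 (P-glycoprotein) had 16.1, 13.2 and 15.1 CPM at 24 h, against 7.61, 10.1 and 8.11 CPM untreated (log2 change 0.78 ± 0.12 SE, adjusted p = 2.28e-05). Nuclear respiratory chain genes fell in 24 of 77 cases and rose in 1 (median -0.19). That count was 13 under upper-quartile scaling and 38 without shATF4 24 h replicate 3.

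Of 13 proteins encoded by mitochondrial DNA 1 was called, and 4 without the filter on low counts. It was MT-CYB, with 375, 451 and 375 CPM at 24 h, against 546, 1071 and 551 CPM untreated. Its log2 change was -0.85 ± 0.17 SE, adjusted p = 0.000311, and -0.45 (adjusted p = 0.000338) when untreated replicate 2 was left out, which had the high share of mitochondrial counts. The median of the 13 was -0.08, and 0.33 without that library, where MT-ND1 was called higher (log2 change 0.52, adjusted p = 6.24e-05). Mitochondrial ribosomal RNA took 0.881% to 0.955% of counts at 24 h and 0.359% to 0.457% untreated, with no overlap between the groups.

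The largest rises among protein-coding genes with at least 10 summed counts in each group came from genes that were nearly silent before. ACVRL1, a receptor of BMP9, had 6.38, 5.72 and 6.81 CPM at 24 h, against 0.220, 0.254 and 0.335 CPM untreated, which is 22.7-fold (log2 change 4.50 ± 0.30 SE, adjusted p = 3.03e-10). The phosphatase gene PTPN7 had 6.38, 3.77 and 4.97 CPM at 24 h, against 0.293, 0.190 and 0.268 CPM untreated (log2 change 4.31 ± 0.30 SE, adjusted p = 5.82e-10), and PADI1, which encodes an enzyme that turns arginine into citrulline, had 16.1, 17.5 and 18.4 CPM at 24 h, against 1.24, 1.20 and 0.469 CPM untreated (log2 change 4.15 ± 0.22 SE, adjusted p = 7.93e-12). That the groups did not overlap was a condition for naming these genes. GRHL3, a transcription factor of epidermal differentiation, stood at 3.69 ± 0.41 SE, adjusted p = 3.29e-07, WNT7B, a Wnt ligand, at 3.47 ± 0.20 SE, adjusted p = 2.7e-11, ASB2, a ubiquitin ligase subunit, at 3.52 ± 0.23 SE, adjusted p = 2.45e-10, and CREB3L1 at 3.48 ± 0.40 SE, adjusted p = 5.21e-07. SRGN, a proteoglycan core protein, stood at 3.68 ± 0.40 SE, adjusted p = 2.68e-07, and at 4.27 without untreated replicate 1. The largest falls other than histone genes were in ACTL8 (-2.89 ± 0.47 SE, adjusted p = 4.01e-05), NUTM2B (-2.33 ± 0.51 SE, adjusted p = 0.000916, a gene with near-identical copies), osteopontin SPP1 (-2.04 ± 0.35 SE, adjusted p = 7e-05), SEMA3C (-1.95 ± 0.25 SE, adjusted p = 3.02e-06) and UFSP1 (-1.88 ± 0.43 SE, adjusted p = 0.00137). By gain in CPM CYB5B, a cytochrome b5 of the outer mitochondrial membrane, led with 915, 844 and 897 CPM at 24 h, against 522, 477 and 564 CPM untreated, followed by MYBL2, a partner of the MuvB complex, with 554, 577 and 566 CPM at 24 h, against 330.2, 349.8 and 320.1 CPM untreated. The lipid droplet protein PLIN2 (0.88 ± 0.08 SE, adjusted p = 1.41e-08) was also in that set. ACTB and ACTG1, the cytoplasmic actins, were among those that lost most, at -0.60 and -0.79 on the log2 scale. Of the non-coding RNAs LINC00589 had 9.37, 9.11 and 8.70 CPM at 24 h, against 0.439, 0.127 and 0.402 CPM untreated (log2 change 4.81 ± 0.28 SE, adjusted p = 3.1e-11), and LINC02432 was lower at 0.287, 0.251 and 0.237 CPM at 24 h, against 1.46, 0.761 and 1.21 CPM untreated (log2 change -2.10 ± 0.43 SE, adjusted p = 0.00043).

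Levels moved on between 24 h and 48 h. At 48 h against 24 h 6621 genes (38.3%) were called, 18.8% higher and 19.5% lower. The untreated libraries are not in this contrast, but they share the fit, its filter and its estimate of spread. The count was 4363 to 7924 with libraries left out, lowest without 48 h replicate 2, and 8470 with only the samples compared. PIM1, a survival kinase, had 22.5 and 25.1 CPM at 48 h and 1.49, 1.26 and 1.01 CPM at 24 h (log2 change 4.24 ± 0.22 SE, adjusted p = 1.52e-11). KLK10, a secreted serine protease, had 45 and 47 CPM at 48 h and 2.18, 3.08 and 3.55 CPM at 24 h (log2 change 3.97 ± 0.17 SE, adjusted p = 1.41e-12), and WNT9A (4.79 ± 0.33 SE, adjusted p = 9.21e-10), the hormone gastrin GAST (4.33 ± 0.46 SE, adjusted p = 2.98e-07) and RAB3B (3.80 ± 0.39 SE, adjusted p = 2.08e-07) rose with them. These 5 were all at or under 4 CPM at 24 h. TNC, the matrix protein tenascin C, had 181 and 189.8 CPM at 48 h and 1133, 1229.8 and 1121 CPM at 24 h (log2 change -2.65 ± 0.08 SE, adjusted p = 6.95e-15), and ST18, a zinc finger gene, had 3.15 and 3.64 CPM at 48 h and 27.5, 27.4 and 24.6 CPM at 24 h (log2 change -2.96 ± 0.14 SE, adjusted p = 3.25e-12). GPAT2, MGAM2 and CHODL, which had fallen at 24 h, were lower still at 48 h, at -3.11, -2.75 and -2.65 on the log2 scale. Among the lists the large ribosomal subunit had 39 of 47 lower and 0 higher at 48 h against 24 h and G1/S genes 21 of 43 lower and 5 higher. Mitotic genes had 16 of 43 higher and 4 lower. CDKN1A rose further (1.33 ± 0.14 SE, adjusted p = 2.85e-07), as did LAMA3 (1.19 ± 0.08 SE, adjusted p = 3.64e-10), while PLK1 (0.10 ± 0.08 SE, adjusted p = 0.322), CXCL8 (0.24 ± 0.15 SE, adjusted p = 0.218) and EGR3 (-0.01 ± 0.14 SE, adjusted p = 0.963) did not pass.

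In shATF4 cells ATF4 itself, the target of the hairpin, had 91.1, 109 and 130.4 CPM at 24 h and 172, 169 and 179 CPM untreated, against 270.1, 285 and 280.1 CPM at 24 h and 388, 364 and 384 CPM untreated in scramble cells. The difference between the lines in the 24 h response, tested as an interaction, was called for 369 genes (2.13%), 0.947% higher and 1.18% lower in shATF4 cells. It was called for none of the 27 chemokine and cytokine genes, 29 histone genes or 29 interferon-stimulated genes tested. At 2.13% over all genes few or no calls fall in lists of that size, so this does not show that the lines responded alike. CDKN1A had 15.7, 18.4 and 18.3 CPM at 24 h and 2.05, 1.94 and 1.36 CPM untreated in shATF4 cells, and the difference did not pass (-0.61 ± 0.32 SE, adjusted p = 0.313). For the large ribosomal subunit 7 of 47 were called, all 7 with a less negative or positive log2 change in shATF4 cells, RPL3 with log2 changes of -1.22 in shATF4 and -1.62 in scramble cells (difference 0.40 ± 0.08 SE, adjusted p = 0.0127). GDF15 had log2 changes of 2.31 in shATF4 and 1.80 in scramble cells (difference 0.52 ± 0.11 SE, adjusted p = 0.0225). EPAS1 had log2 changes of 1.78 in shATF4 and 4.22 in scramble cells (difference -2.44 ± 0.60 SE, adjusted p = 0.0363). The count rested on single libraries: it was 65 without shATF4 untreated replicate 2 and 1188 without shATF4 24 h replicate 1, and 678 without shATF4 24 h replicate 3, a library with 0.0713% of its counts from signal recognition particle RNA, against 0.0224% and 0.0241% in the other shATF4 libraries at 24 h.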

How the data were processed

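Per the labels' protocols, RNA from SW620 cells was selected by poly(A), reverse transcribed with random hexamers and sequenced. The authors deposited whole-number counts per gene, made with featureCounts 1.5.0-p3 on GRCh38 per the submitters' processing notes. Information on the aligner, annotation release and strand setting was not given in the sources used here, so antisense and overlapping genes cannot be told apart from their partners. The same deposited table holds FPKM values, gene length, and the authors' log2 fold changes with their p-values and adjusted p-values, per the file headers. The FPKM values were not used for any test.

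All 16 libraries, in 6 groups, were fitted with edgeR 4.0.16 (filterByExpr, trimmed mean of M values, glmQLFit and glmQLFTest) on the deposited counts, with 10 residual degrees of freedom. Adjusted p-values are Benjamini-Hochberg over the 17309 genes tested, which hold 99.9% of counts, with calls under 0.05. Every adjusted p, and every standard error (SE) of a log2 change, comes from this fit unless an alternative is named. No 2 replicates of a group agreed within sampling noise. The members and gene lists were chosen with earlier results of these data known. Genes named beyond lists were those with the largest rise or fall among called protein-coding genes that had at least 10 summed counts in each group and no overlap between groups, the largest gains and losses in CPM, the non-coding genes with the largest changes, and the genes that differed most between times or lines. From each list up to 4 called members with the largest absolute change were named, and other members only beside the counts of their list. Alternatives were other scalings and filters, a replicate block, only the samples compared, libraries left out, and DESeq2 1.42.0. Some genes and lists are not reported here.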

Additional observations from a re-analysis of the deposited data

Results flagged for a closer look

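The response to 24 h of 5-FU differed between the lines for 369 genes by the interaction contrast of the edgeR fit. The 6 genes below had the largest such differences by the rule for named genes. The log2 difference, shATF4 response minus scramble response, was 2.22 for SLC25A18, a mitochondrial carrier, 1.42 for MT-ND4L and 1.20 for MT-ND1, subunits of respiratory complex I. It was -2.82 for MYO1F, an unconventional myosin, -2.49 for JPH2, a junctophilin, and -2.44 for EPAS1, HIF-2α. In shATF4 cells EPAS1 had 1.93, 2.21 and 1.69 CPM at 24 h and 0.205, 0.761 and 0.716 CPM untreated, while in scramble cells it had 2.93, 3.33 and 2.96 CPM at 24 h and 0.0732, 0.254 and 0.134 CPM untreated. The adjusted p of the 6 differences ran from 0.0253 for MT-ND1 to 0.045 for MYO1F (edgeR). MT-ND1 and MT-ND4L move with untreated scramble replicate 2, the library with 1.42% of counts from mitochondrial protein-coding genes. Without it the 24 h change of MT-ND1 in scramble cells was 0.52 (adjusted p = 6.24e-05, edgeR). The part of that library in the difference between the lines was not tested for single genes.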

How the results depend on the processing

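The 24 h response gave 6507 to 8390 calls over 16 alternatives, against 7610. Of 258 named genes 250 were called, 10 lost the call and 5 gained one under at least 1 alternative, and 0 of those called changed sign. Sign changes of genes not called were not counted. Among these MT-ND4L went from -0.08 to 0.21 without both untreated replicate 2 and shATF4 24 h replicate 3. The count for 48 h against 24 h was 6621, 4363 to 7924 with libraries left out, and 8470 with only the samples compared. The difference between the lines was the least stable, at 369 genes: 798 without a filter on low counts, 173 with only the samples compared, 675 with DESeq2, 647 without both untreated replicate 2 and shATF4 24 h replicate 3, and 65 to 1188 with single libraries left out. The cause was not tested. With the replicate block it was 644, and 224 with the block on only the samples compared, while the 24 h response gave 7903 calls with the block. Same-numbered deviations of the 24 h and untreated scramble libraries correlated at -0.009, 0.413 and 0.249 over 11172 genes, so the numbers were not taken to pair the samples, and untreated replicate 1 did not correlate best with its own number. List counts moved beyond 1.5 times for 7 of 55 lists. The median log2 change of 42 lists moved under at least 1 alternative, by another rule. A median was taken to move when it shifted by more than its SD between libraries, the larger of the treated and the untreated group. Depth limits genes under 1 CPM, of which 18.3% were called higher and 2.77% lower.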
